A study of Mus musculus with 30 samples.

Results

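The comparison was between the 2 cell fractions that collagenase digestion gives from mouse white fat: the floating adipocytes and the pelleted stromal-vascular cells (SVC). It used 9 of the 30 libraries of the series and took in every gene that passed an expression filter set over all 18 male libraries. This left 17251 genes tested of 35120 in the count table. Strand-specific mRNA sequencing gave 6 libraries of adipocytes and 3 libraries of SVC, all from male Ctnnb1fl/fl mice, in which both alleles of the beta-catenin gene carry loxP sites and which served the series as controls for the adipocyte knockout Ctnnb1AdKO. The series compared those genotypes in both sexes, and the sources used here give no age and name neither the driver of the Cre nor the deleted exons. Every library's labels name both the epididymal and the posterior subcutaneous depot, and do not say whether depots or animals were pooled. Collagenase type I (500 U/ml) was left on epididymal fat for 20 min and on subcutaneous fat for 30 min, and the digest passed a 300 µm strainer and was spun at 80 x g for 8 min. The tests took the scaling and the spread from all 18 male libraries, which include 9 labelled Ctnnb1AdKO. The labels number the replicates without saying that they are separate animals. A p-value here therefore measures the spread between those libraries, which may be partly technical. Whether adipocyte and SVC libraries came from the same animals is not stated either, and the main tests treat the libraries as independent.

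A white adipocyte holds 1 large lipid droplet, takes up fatty acids and glucose under insulin, stores them as triglyceride, releases them by lipolysis when catecholamines act, and secretes hormones such as adiponectin and leptin. The stromal-vascular fraction is a mixture: fibroblast-like progenitors that can become adipocytes and that lay down matrix, endothelial cells and pericytes of the vessels, mesothelial cells of the fat pad's surface, and resident immune cells. A fold between the fractions is therefore a difference between mixtures: fewer cells of a type and less RNA per cell cannot be told apart in such bulk libraries.

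The 9 libraries held between 20686337 and 22209603 counts. A few genes held more of the adipocyte libraries than of the SVC libraries: the 10 most abundant genes took 15.5% ± 0.897 (SD, n = 6) of adipocyte counts and 6.83% ± 0.872 (SD, n = 3) of SVC counts, and between 302 and 380 genes made up 50% of an adipocyte library's counts against 632 to 903 genes in SVC, where 13678 to 15947 genes reached 1 CPM (count per 1000000 counts) against 11853 to 12150 in adipocytes. The 22 markers of mature adipocytes took 10.4% ± 0.356 of adipocyte counts and 0.451% ± 0.110 of SVC counts. Transcripts of the mitochondrial genome took 1.83% ± 0.149 and 1.15% ± 0.0599, and ribosomal protein genes 1.73% ± 0.212 and 2.86% ± 0.852. For ribosomal protein genes SVC replicate 3 stood at 3.85% against 2.41% and 2.33%, and without it the difference (adipocytes minus SVC) was -0.646 in place of -1.14 percentage points. For each of the 4 shares above and for the share of the 100 most abundant genes (35.5% ± 1.02 and 22.0% ± 2.06) the 2 groups did not overlap, and the exact permutation test, two-sided over 84 splits, gave p = 0.0238 (0.0238 after adjustment over the 5 shares), the smallest p that 6 against 3 libraries allow. For the adipocyte markers the separation follows from the choice of the list, so their p is not read as a result. CPM below are scaled by edgeR's TMM factors, which are meant to adjust for such differences in composition. TMM takes most genes to be alike between libraries, whereas 77.1% of the genes tested were called different between the fractions. The factors were lower in every adipocyte library than in every SVC library. The point of no difference between the fractions therefore rests on a premise that was not tested, and small differences rest on it most. A named gene that passed the test did not overlap between the 6 and the 3 libraries unless its values or the text say so.

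SVC replicate 1 stood apart from the other SVC libraries in genes of the epididymal duct and of sperm. These summed to 3488 CPM in replicate 1, against 87.0 and 69.8 CPM in the other SVC libraries and 0.527 to 5.29 CPM in the adipocyte libraries. Over counted genes as a whole replicate 3 lay furthest from the others. The chi-square per degree of freedom was 59.7 between replicates 1 and 2, 105 between 1 and 3 and 101 between 2 and 3. Gpx5, a glutathione peroxidase of the epididymis, stood at 1428 CPM in replicate 1 and at 0.0371 and 0.844 CPM in replicates 2 and 3, and so did not pass the expression filter. Of the 7632 genes called higher in SVC, 547 were at least 5 times as high in replicate 1 as in either other SVC library. The same count was not made for replicates 2 and 3. SVC replicate 3 had the highest level of 21 of the 22 adipocyte markers among the SVC libraries: the median marker stood at 1.82% of its adipocyte level there, against 0.830% and 0.933% in replicates 1 and 2. Replicate 3 also had the highest macrophage and dendritic cell sums (9606 and 17654 CPM). The part of these differences in the results was not tested, and counts without replicate 1 are given below.

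**Figure D1:**
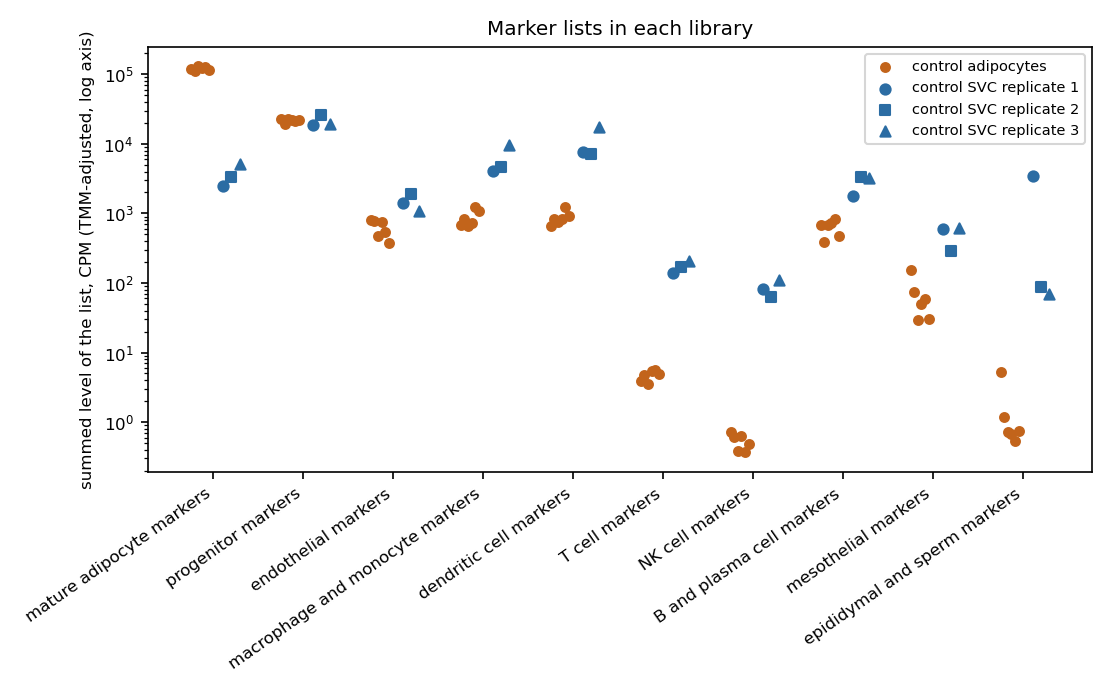
Summed level of 10 marker lists in each library, in TMM-adjusted CPM on a log axis; orange points are the 6 control adipocyte libraries and blue symbols the 3 control SVC libraries. Adipocyte markers sum to between 110583 and 130151 CPM in adipocytes and 2511 to 5137 CPM in SVC, and the epididymal and sperm list reaches 3488 CPM in SVC replicate 1 only.

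Both groups carry the floxed, undeleted Ctnnb1, so its level checks no deletion here. Ctnnb1, which encodes beta-catenin, the transcriptional arm of canonical Wnt signalling and a partner of cadherins, was between 365 and 392 CPM (median 379) in the adipocyte libraries and at 392, 425 and 401 CPM in the SVC libraries. The SVC libraries lay just above the adipocyte libraries, and the difference did not pass the test (log2 -0.10 ± 0.17 SE, adjusted p = 0.604, 95% interval -0.47 to 0.27 on the log2 scale). Its size depends on the scaling: library totals alone moved the median gene from log2 -0.29 to -0.85. The value of Ctnnb1 under library totals is not given here.

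Most expressed genes differed between the fractions. Adjusted p, from edgeR's quasi-likelihood test with Benjamini-Hochberg adjustment over all 17251 genes, was below 0.05 for 5661 genes higher in adipocytes (32.8% of those tested) and 7632 higher in SVC (44.2%), 77.1% in either direction. A test against a 2-fold difference (edgeR's glmTreat) called 3080 genes higher in adipocytes (17.9%) and 5389 higher in SVC (31.2%), 49.1% in either direction. The groups did not overlap for 5545 genes higher in adipocytes (32.1%) and 7092 higher in SVC (41.1%). The median gene stood at log2 -0.29 (adipocytes minus SVC, as all differences below), so that 42.6% of the calls, and 36.4% of the 2-fold calls, were higher in adipocytes. Scaling by library totals alone put the median gene at log2 -0.85 and these shares at 28.1% and 22.1%, with 3809 genes higher in adipocytes and 9735 in SVC. Small differences, and genes said below to pass no test, therefore depend on the scaling. Without SVC replicate 1 the counts were 5336 and 6923, and 2964 and 4702 beyond 2-fold. The 9 control libraries fitted alone tested 15791 genes and gave 5973 and 6817, and 3224 and 4616 beyond 2-fold. At the other end, 3683 genes (21.3%) had a 95% interval within 1 log2 unit of 0, that is, within 2-fold. The counts and medians of gene lists below stand against these percentages and against the median of -0.29.

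**Figure D2:**
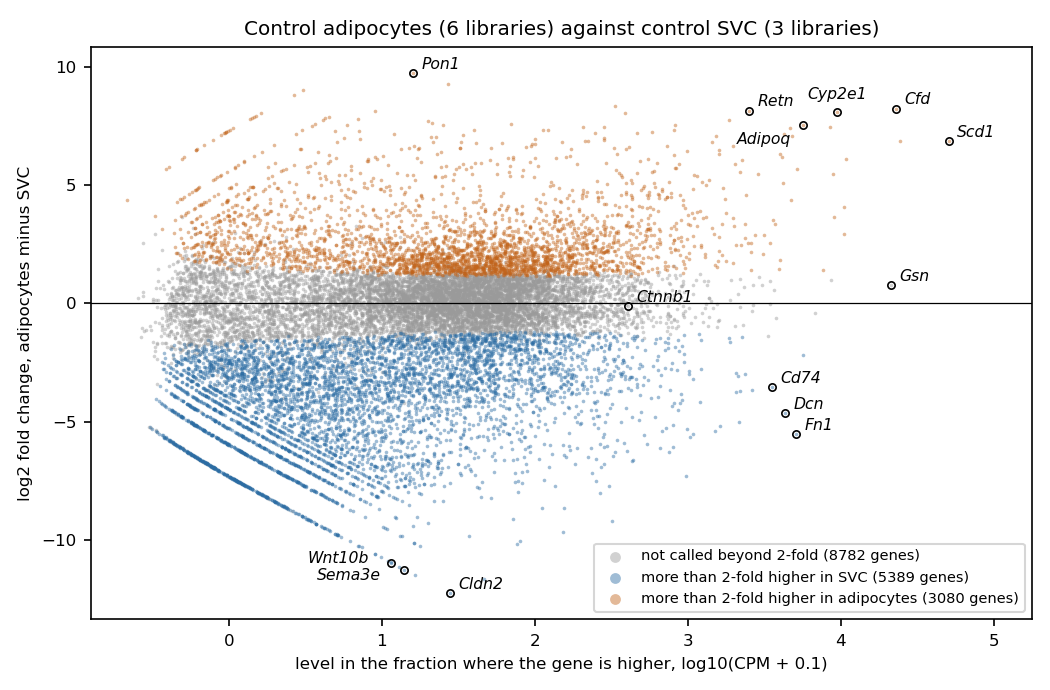
Log2 fold change (adipocytes minus SVC) against the level of each gene in the fraction where it is higher, log10(CPM + 0.1); 17251 genes, with 14 named. Orange and blue genes passed the test against 2-fold (3080 and 5389 genes), and the bands at lower left are genes with very few adipocyte counts.

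The genes that took the largest shares of adipocyte counts were enzymes and secreted proteins of fat. Scd1, the desaturase that makes monounsaturated fatty acids, was between 39367 and 61062 CPM (median 51639) in the adipocyte libraries and at 217, 237 and 855 CPM in the SVC libraries. It was 116-fold higher in adipocytes (log2 6.86 ± 0.61 SE, adjusted p = 2.42e-08). Scd1 was the most counted gene of all 6 adipocyte libraries. Car3, a carbonic anhydrase long known as an abundant fat cell protein, was between 20916 and 27951 CPM (median 23914) in the adipocyte libraries and at 66.5, 114 and 449 CPM in the SVC libraries. It was 116-fold higher in adipocytes (log2 6.86 ± 0.63 SE, adjusted p = 3.29e-08). The rest of the 10 most counted adipocyte genes were the serine protease Cfd, the fatty acid synthase Fasn, lipoprotein lipase Lpl, transferrin Trf, cytochrome P450 Cyp2e1, the fatty acid binding protein Fabp4, haptoglobin Hp and gelsolin Gsn, with folds from 1.70-fold for Gsn to 304-fold for Cfd. Gsn, which severs actin filaments and has a secreted form, was also the most counted gene of every SVC library: it was between 18583 and 22429 CPM (median 21375) in the adipocyte libraries and at 10845, 16273 and 10319 CPM in the SVC libraries. Its 1.70-fold difference (adjusted p = 0.00323) missed the threshold under library totals alone (adjusted p = 0.354).

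The most counted SVC genes were of other kinds. Fn1, the matrix glycoprotein fibronectin, was between 89.4 and 159 CPM (median 98.7) in the adipocyte libraries and at 4848, 5098 and 5429 CPM in the SVC libraries. It was 45.5-fold higher in SVC (log2 -5.51 ± 0.26 SE, adjusted p = 1.64e-11). Dcn, the small collagen-binding proteoglycan decorin, was between 110.2 and 235 CPM (median 178) in the adipocyte libraries and at 3548, 5251 and 4233 CPM in the SVC libraries. It was 24.8-fold higher in SVC (log2 -4.63 ± 0.26 SE, adjusted p = 1.1e-10). C3, the central complement component, and Cd74, the invariant chain of MHC class II, were 4.50-fold and 11.7-fold higher in SVC (adjusted p = 2.31e-07 and 1.4e-09). Eef1a1, an elongation factor of translation, and Psap, a precursor of lysosomal activators, were 1.34-fold and 1.51-fold higher in SVC (adjusted p = 0.0328 and 0.00415). Both calls were lost without SVC replicate 3, and that of Eef1a1 also without adipocyte replicate 4 or 5. mt-Co1, a cytochrome oxidase subunit of the mitochondrial genome, was among the most counted SVC genes and yet 1.96-fold higher in adipocytes (adjusted p = 0.00141; 0.0633 under library totals alone). Hspa8 and Hspa1b, heat shock chaperones, passed no test and overlapped between groups. Hspa1b has a near-identical copy, Hspa1a, with which it can share reads.

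The largest differences in favour of adipocytes, among genes with a mean of at least 10 CPM there and no overlap, were a mixture of secreted proteins, enzymes and a transporter. Pon1, which encodes the lactonase paraoxonase 1, was between 7.84 and 24.5 CPM (median 16.3) in the adipocyte libraries and at 0, 0 and 0.0422 CPM in the SVC libraries, a ratio of 1272 with a 95% counting interval of 228 to 50285 from 1 count in SVC. Serpina3b, a serine protease inhibitor, gave a ratio of 724 with a 95% counting interval of 247 to 3510.4 from 3 counts in SVC. Ces1f, a carboxylesterase, was 327-fold higher. Both belong to clusters of close copies, between which reads can be split. Slc7a10, a transporter of small neutral amino acids, was between 286 and 508 CPM (median 391) in the adipocyte libraries and at 0.309, 0.557 and 3.63 CPM in the SVC libraries. It was 266-fold higher in adipocytes (log2 8.05 ± 0.79 SE, adjusted p = 1.17e-07). Nnat, which encodes the membrane proteolipid neuronatin, was between 1122 and 2574 CPM (median 1929.5) in the adipocyte libraries and at 2.75, 4.08 and 19.0 CPM in the SVC libraries. It was 217-fold higher in adipocytes (log2 7.76 ± 0.96 SE, adjusted p = 1.73e-06). Cyp2e1 (278-fold), Apol6 (187-fold), the nuclear receptor Rxrg (188-fold) and BC035947 (200.2-fold) were among the 12 largest, with the hormones Cfd, Retn and Adipoq. No gene with 10 CPM in adipocytes was at 0 counts in all 3 SVC libraries. SVC replicate 3 was the highest SVC library for each of these 12 genes except BC035947.

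The 12 largest differences in favour of SVC, chosen in the same way, were all highest in SVC replicate 1, and several are genes known from epithelia. Cldn2, a tight-junction claudin, was at 0 counts in all 6 adipocyte libraries and at 71.4, 9.99 and 1.94 CPM in SVC, at least 1144-fold higher. Pax8, a transcription factor of epithelia such as those of the genital ducts, was at 0 counts in adipocytes and at 27.7, 5.05 and 1.18 CPM in SVC, at least 464-fold higher. Actg2, the enteric smooth muscle actin, was at 224, 3.75 and 1.10 CPM in SVC. Cuzd1, Tdrd6, Mmp7, Dsp, Dcdc2a, Prom2 and Crisp1, genes of secretory and ciliated epithelia, of desmosomes and of the male germ line, were also highest in replicate 1. Wnt10b and Sema3e varied less: Sema3e, a secreted semaphorin, was at 0 counts in adipocytes and at 17.0, 15.8 and 9.03 CPM in SVC, at least 543-fold higher. Of these 12, Tdrd6 lost its call without SVC replicate 1 (adjusted p = 0.0787). Bounds here take 3 counts over the 6 adipocyte libraries as the floor and cover counting error only.

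Hormones of the fat cell were mostly higher in the adipocyte fraction. Of 15 adipokines listed, 13 were tested, 11 were higher in adipocytes and 2 higher in SVC, with a median log2 difference of 4.61 against -0.29 for all genes. Adipoq, which encodes adiponectin, the insulin-sensitising hormone of fat, was between 5024 and 6389 CPM (median 5584) in the adipocyte libraries and at 6.46, 12.0 and 73.6 CPM in the SVC libraries. It was 185-fold higher in adipocytes (log2 7.53 ± 0.91 SE, adjusted p = 1.21e-06). Retn, which encodes resistin, was between 1899.8 and 2975 CPM (median 2565) in the adipocyte libraries and at 1.48, 4.01 and 20.9 CPM in the SVC libraries. It was 287-fold higher in adipocytes (log2 8.16 ± 0.85 SE, adjusted p = 2.05e-07). Cfd, which encodes adipsin, the factor D of the alternative complement pathway, was between 20312 and 27249.9 CPM (median 22864) in the adipocyte libraries and at 15.9, 32.2 and 180.0 CPM in the SVC libraries. It was 304-fold higher in adipocytes (log2 8.25 ± 0.91 SE, adjusted p = 3.69e-07). In all of these SVC replicate 3 was highest and replicate 1 lowest among the SVC libraries. Lep, the satiety hormone leptin, was 88.1-fold higher (adjusted p = 4.52e-06). Metrnl, a secreted protein also made by macrophages and skin, went the other way: it was between 17.0 and 32.5 CPM (median 23.6) in the adipocyte libraries and at 124, 132 and 234 CPM in the SVC libraries. It was 6.83-fold higher in SVC (log2 -2.77 ± 0.24 SE, adjusted p = 1.67e-08). Apln, the peptide apelin, was 3.19-fold higher in SVC (adjusted p = 0.0075), a call lost without SVC replicate 2.

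The proteins that coat and shape the lipid droplet were all higher in adipocytes: 13 of 13 tested passed (median log2 3.43), 10 of them beyond 2-fold. Cidec, which fuses droplets into 1 large one, was between 7555 and 9292 CPM (median 8492) in the adipocyte libraries and at 16.7, 26.5 and 99.0 CPM in the SVC libraries. It was 179-fold higher in adipocytes (log2 7.49 ± 0.65 SE, adjusted p = 1.72e-08). Plin1, the perilipin that gates lipolysis, was between 3886 and 5503 CPM (median 4608) in the adipocyte libraries and at 6.15, 12.1 and 62.4 CPM in the SVC libraries. It was 173-fold higher in adipocytes (log2 7.43 ± 0.77 SE, adjusted p = 1.75e-07). The other perilipins were spread widely: Plin4 differed 135-fold, Plin5 15.6-fold, Plin2 2.29-fold and Plin3 1.75-fold. Plin2 and Plin3, which coat droplets in most cell types, passed the plain test and not the test against 2-fold, and Plin3 missed the threshold under library totals alone (adjusted p = 0.0593).

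Lipolysis was represented by its enzymes and by the receptors that start or stop it. Of 17 genes, 14 were higher in adipocytes and 3 higher in SVC (median log2 3.74). The lipases Pnpla2 and Lipe, which take the first and the next fatty acid off triglyceride, were 51.1-fold and 73.8-fold higher in adipocytes (adjusted p = 9.34e-12 and 6.13e-11). Adrb3, the beta-adrenergic receptor typical of rodent fat, was between 704 and 891 CPM (median 803) in the adipocyte libraries and at 1.20, 2.26 and 11.8 CPM in the SVC libraries. It was 161-fold higher in adipocytes (log2 7.33 ± 0.79 SE, adjusted p = 3.6e-07). Hcar1, the lactate receptor that restrains lipolysis, was 92.2-fold higher in adipocytes. Of the natriuretic peptide receptors, the clearance receptor Npr3 was 21.6-fold higher in adipocytes and the signalling receptor Npr1 5.29-fold higher in SVC (adjusted p = 4.01e-09 and 1.04e-06). Adra2a, an antilipolytic adrenergic receptor, was higher in SVC at low levels (0.251 ± 0.0955 CPM in adipocytes and 1.36 ± 0.545 CPM in SVC, SD, n = 6 and n = 3).

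Genes that build fatty acids and triglyceride were mostly higher in adipocytes. Of 14 genes of fatty acid synthesis, 9 were higher in adipocytes, 2 higher in SVC and 3 passed no test (median log2 4.35). Fasn was between 6133 and 17992 CPM (median 9911) in the adipocyte libraries and at 142, 121 and 207 CPM in the SVC libraries. It was 68.8-fold higher in adipocytes (log2 6.10 ± 0.75 SE, adjusted p = 1.38e-06), with a wide range among the adipocyte libraries. Thrsp, a lipogenic nuclear protein, was 135-fold higher. Acly, which makes cytosolic acetyl-CoA from citrate, was between 516 and 1161 CPM (median 845) in the adipocyte libraries and at 308, 239 and 269 CPM in the SVC libraries. It did not pass although its groups did not overlap (log2 1.59 ± 0.72 SE, adjusted p = 0.0528). Fads2, the delta-6 desaturase of polyunsaturated fatty acids, was between 4.56 and 10.9 CPM (median 6.23) in the adipocyte libraries and at 90.9, 54.4 and 53.4 CPM in the SVC libraries. It was 9.38-fold higher in SVC (log2 -3.23 ± 0.58 SE, adjusted p = 8.85e-05). Of 13 genes of triglyceride synthesis, 12 were higher in adipocytes and 1 in SVC (median log2 5.73). Mogat1, an acyltransferase, was between 102 and 129 CPM (median 111) in the adipocyte libraries and at 0.172, 0.371 and 1.65 CPM in the SVC libraries. It was 160.3-fold higher in adipocytes (log2 7.32 ± 0.63 SE, adjusted p = 1.89e-08). Pcx and Pck1, which feed glycerol synthesis from pyruvate, were 145-fold and 103-fold higher. The exception was Gk, glycerol kinase, at between 6.28 and 9.47 CPM (median 7.34) in the adipocyte libraries and at 35.9, 12.8 and 14.2 CPM in the SVC libraries. It was 2.77-fold higher in SVC (log2 -1.47 ± 0.36 SE, adjusted p = 0.00129). Of 11 genes of fatty acid uptake, 7 were higher in adipocytes and 2 in SVC (median log2 1.48), with Acsl1 45.0-fold and the transporter Slc27a1 29.1-fold higher in adipocytes.

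Of 16 genes of insulin signalling and glucose uptake, 11 were higher in adipocytes and 3 in SVC (median log2 1.42). Slc2a4, the insulin-responsive glucose transporter GLUT4, was between 298 and 473 CPM (median 396) in the adipocyte libraries and at 2.68, 4.31 and 5.78 CPM in the SVC libraries. It was 92.6-fold higher in adipocytes (log2 6.53 ± 0.35 SE, adjusted p = 6.94e-11). Trarg1, which helps move it to the membrane, and Grb14, an adaptor that binds the insulin receptor, were 62.0-fold and 21.9-fold higher. Hk3, a hexokinase of myeloid cells, was 7.55-fold higher in SVC (adjusted p = 4.16e-08).

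Of 18 transcription factors of the fat cell, 15 were higher in adipocytes, 2 in SVC and 1 passed no test (median log2 2.52). Cebpa and Pparg, the pair that holds the adipocyte programme, were 14.2-fold and 9.39-fold higher in adipocytes (adjusted p = 2.65e-10 and 4.48e-09). Rxrg, a partner of nuclear receptors, was between 22.6 and 27.1 CPM (median 25.0) in the adipocyte libraries and at 0.103, 0.0743 and 0.211 CPM in the SVC libraries. Mlxipl, the carbohydrate response factor ChREBP, was between 51.8 and 77.7 CPM (median 71.1) in the adipocyte libraries and at 1.99, 1.19 and 1.65 CPM in the SVC libraries. It was 42.3-fold higher in adipocytes (log2 5.40 ± 0.37 SE, adjusted p = 8.74e-10). Pparg stood at 27.3, 34.3 and 38.4 CPM in SVC. Ebf2, a factor of preadipocytes, was an exception at between 27.4 and 39.8 CPM (median 37.2) in the adipocyte libraries and at 79.0, 91.1 and 50.9 CPM in the SVC libraries. It was 2.09-fold higher in SVC (log2 -1.06 ± 0.25 SE, adjusted p = 0.000994). The other exception was Cebpd, an early factor of adipogenesis, 1.52-fold higher in SVC (adjusted p = 0.0286), a call lost without any of adipocyte replicates 3, 4 and 5 or SVC replicate 2.

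Mitochondrial genes were mostly higher in adipocytes, and those of the nuclear respiratory chain lay within a narrow range. All 28 nuclear genes of the respiratory chain tested passed beyond 2-fold, with log2 differences between 1.78 and 3.15 (median 2.41). Cox8a, a cytochrome oxidase subunit, was between 471 and 609.8 CPM (median 547) in the adipocyte libraries and at 50.0, 48.1 and 83.8 CPM in the SVC libraries. It was 8.88-fold higher in adipocytes (log2 3.15 ± 0.21 SE, adjusted p = 6.63e-10). Ndufa10 of complex I and Cyc1 of complex III were 8.88-fold and 8.12-fold higher. All 11 genes of the mitochondrial genome tested were higher too (median log2 1.84, from 0.97 to 4.53). mt-Cytb, of complex III, was between 3639 and 4312 CPM (median 4162) in the adipocyte libraries and at 1063, 1195 and 1123 CPM in the SVC libraries. It was 3.58-fold higher in adipocytes (log2 1.84 ± 0.25 SE, adjusted p = 4.6e-06). Among the 11, mt-Co2, mt-Co3 and mt-Nd4l were counted at low levels, with means of 3.22, 2.67 and 0.705 CPM in adipocytes, and mt-Nd4l overlapped between groups. Of 18 genes of mitochondrial fatty acid oxidation, 17 were higher in adipocytes and 1 in SVC (median log2 2.59, from -0.58 to 4.46). Cpt2, the inner carnitine palmitoyltransferase, was 22.1-fold higher in adipocytes. Cpt1a, the outer, malonyl-CoA-sensitive one, was between 78.4 and 96.7 CPM (median 90.0) in the adipocyte libraries and at 137, 133 and 124 CPM in the SVC libraries. It was 1.49-fold higher in SVC (log2 -0.58 ± 0.15 SE, adjusted p = 0.00237). Of 19 genes that break down branched-chain amino acids, 18 were higher in adipocytes and Bcat1 passed no test (median log2 3.70, from 0.12 to 4.58). Mccc2 and Mccc1, the subunits of methylcrotonyl-CoA carboxylase, and Bckdhb, of the branched-chain dehydrogenase, were 24.0-fold, 23.8-fold and 22.1-fold higher.

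Genes of brown and beige fat were split: of 11 tested, 6 were higher in adipocytes, 3 in SVC and 2 passed no test. Cox8b, a cytochrome oxidase subunit of brown fat and muscle, was between 1.48 and 11.3 CPM (median 5.72) in the adipocyte libraries and at 0.0344, 0 and 0.0422 CPM in the SVC libraries. Ucp1, the uncoupling protein that defines brown fat, was at 40.1 CPM in adipocyte replicate 2 and at no more than 0.157 CPM in the other 5 adipocyte libraries, with 1.03, 0.668 and 0.38 CPM in SVC, and passed no test (log2 3.26 ± 2.12 SE, adjusted p = 0.169). Cidea was between 2.97 and 28.8 CPM (median 5.81) in the adipocyte libraries and at 0.481, 0.111 and 0.169 CPM in the SVC libraries. Tmem26, a surface marker of beige precursors, was 40.6-fold higher in SVC. Muscle markers were split as well, with 2 of the 5 tested higher in each fraction. The sum of the 9 listed was 72.4 to 112 CPM in the adipocyte libraries and 4.64 to 5.57 CPM in SVC. Myl1, a light chain of skeletal muscle myosin, was between 30.0 and 35.3 CPM (median 34.2) in the adipocyte libraries and at 0.447, 0.408 and 0.844 CPM in the SVC libraries. It was 59.7-fold higher in adipocytes (log2 5.90 ± 0.26 SE, adjusted p = 9.34e-12). Acta1, the actin of skeletal muscle, was 67.0-fold higher in adipocytes. Tnnt3 was 88.8-fold higher in SVC. Ckm, the muscle creatine kinase, was at 0 counts in adipocytes and did not pass the expression filter, so it was not tested.

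**Figure D3:**
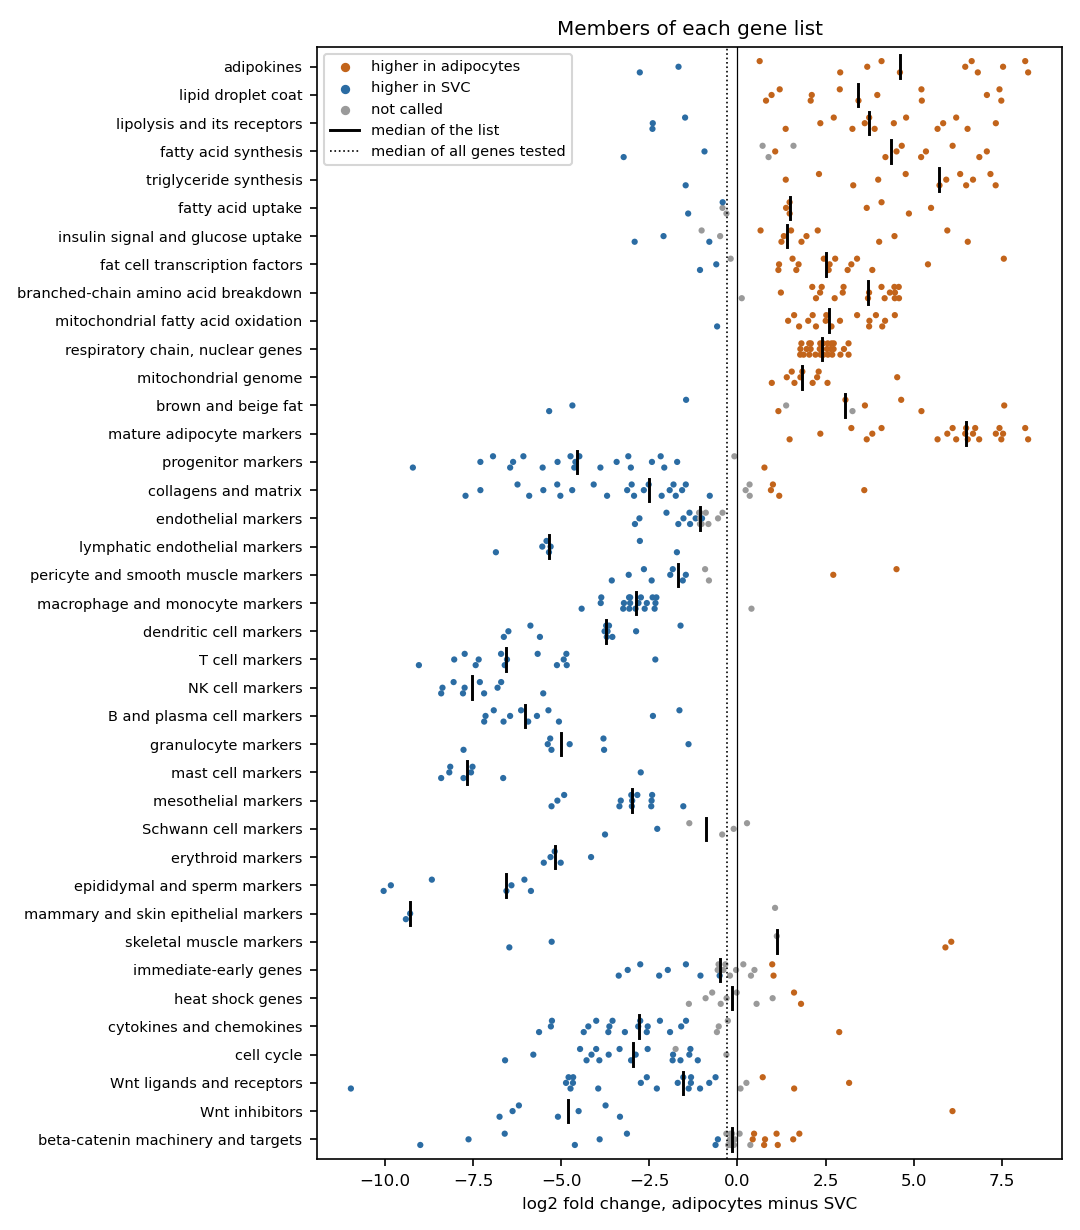
Log2 fold change (adipocytes minus SVC) of each tested member of 39 gene lists; orange, blue and grey points are called higher in adipocytes, higher in SVC or not called, black bars are list medians and the dotted line is the median of all genes. The 28 respiratory chain genes lie between 1.78 and 3.15, whereas lists of immediate-early and heat shock genes straddle 0.

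Progenitor genes were higher in SVC, with 1 exception. Of 22 listed, 20 were higher in SVC beyond 2-fold, Gsn was higher in adipocytes and F3 passed no test (median log2 -4.54). Pi16, a surface protein of the multipotent progenitors near vessels, was between 0.313 and 0.778 CPM (median 0.516) in the adipocyte libraries and at 363, 298 and 294 CPM in the SVC libraries. It was 592-fold higher in SVC (log2 -9.21 ± 0.33 SE, adjusted p = 1.89e-12). Pdgfra, the receptor by which fat progenitors are commonly sorted, was between 1.42 and 3.79 CPM (median 2.03) in the adipocyte libraries and at 261, 335 and 215 CPM in the SVC libraries. It was 122-fold higher in SVC (log2 -6.94 ± 0.30 SE, adjusted p = 7.74e-12). Fbn1, the microfibril protein that also carries the peptide asprosin, was between 4.13 and 11.3 CPM (median 5.40) in the adipocyte libraries and at 1109, 769 and 1025 CPM in the SVC libraries. It was 157-fold higher in SVC (log2 -7.29 ± 0.30 SE, adjusted p = 6.36e-12). Dpp4, of the interstitial progenitors, and Icam1, of the committed ones, were 34.4-fold and 8.14-fold higher. The summed list stood at 101% of its SVC level in adipocytes, where Gsn held 21205 CPM of the sum on average.

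Collagens and other matrix genes were mostly higher in SVC: 22 of 29, with 4 higher in adipocytes and 3 that passed no test (median log2 -2.52). Col14a1, a fibril-associated collagen, was between 0.901 and 2.33 CPM (median 1.34) in the adipocyte libraries and at 329, 268 and 314 CPM in the SVC libraries. It was 210.2-fold higher in SVC (log2 -7.72 ± 0.28 SE, adjusted p = 2.07e-12). The gelatinase Mmp2 was 75.6-fold higher. An exception was Timp4, an inhibitor of metalloproteinases, which was between 436 and 648 CPM (median 573) in the adipocyte libraries and at 29.2, 63.2 and 44.6 CPM in the SVC libraries. It was 12.1-fold higher in adipocytes (log2 3.60 ± 0.34 SE, adjusted p = 4.91e-08). Col15a1, Col5a3 and Sparc were also higher in adipocytes (log2 1.18, 1.01 and 0.95). The basement membrane genes Col4a1, Col4a2 and Lama4 passed no test; Col4a1 was between 1233 and 1563 CPM (median 1373) in the adipocyte libraries and at 1066, 1413 and 1058 CPM in the SVC libraries.

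Vessel genes were less clearly divided. Of 18 endothelial markers, 9 were higher in SVC, 4 of these beyond 2-fold, and 9 passed no test (median log2 -1.08). The count depended on the setting: 18 passed under library totals alone, 16 with the 9 control libraries fitted alone and 4 without SVC replicate 2. The groups did not overlap for 14 of the 18. Their sum ranged from 372 to 791 CPM in the adipocyte libraries and from 1075 to 1908 CPM in SVC, so that adipocyte libraries held 42.1% of the SVC level. Vwf, the clotting factor carrier of large vessels, was between 5.02 and 12.3 CPM (median 7.04) in the adipocyte libraries and at 58.3, 85.1 and 30.5 CPM in the SVC libraries. It was 7.51-fold higher in SVC (log2 -2.91 ± 0.51 SE, adjusted p = 8.29e-05). Cdh5, the cadherin of endothelial junctions, was between 49.0 and 106 CPM (median 85.3) in the adipocyte libraries and at 160.4, 229 and 119.7 CPM in the SVC libraries and missed the threshold (log2 -1.09 ± 0.49 SE, adjusted p = 0.0538). All 7 lymphatic markers were higher in SVC (median log2 -5.35), and their sum in adipocytes was 8.56% of that in SVC. Mmrn1, a multimerin of lymphatic vessels, was between 0 and 0.157 CPM (median 0.0784) in the adipocyte libraries and at 14.7, 10.5 and 6.88 CPM in the SVC libraries. Among 12 markers of pericytes and smooth muscle, 8 were higher in SVC and 2 in adipocytes. Myh11, the smooth muscle myosin, was 8.49-fold higher in SVC. Mcam, an adhesion molecule of pericytes and endothelium, was between 629 and 917 CPM (median 764) in the adipocyte libraries and at 34.9, 36.8 and 30.0 CPM in the SVC libraries. It was 22.8-fold higher in adipocytes (log2 4.51 ± 0.31 SE, adjusted p = 1.06e-09). Cspg4, the pericyte proteoglycan NG2, was 6.58-fold higher in adipocytes.

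Immune genes were higher in SVC in every list, with 1 exception. Of 19 macrophage and monocyte markers, 18 were higher in SVC (median log2 -2.89). Mertk lay the other way, at log2 0.40 with every adipocyte library above every SVC library, and passed no test. Ccr2, the receptor of recruited monocytes, was between 2.30 and 5.99 CPM (median 3.56) in the adipocyte libraries and at 52.6, 60.4 and 125 CPM in the SVC libraries. It was 21.4-fold higher in SVC (log2 -4.42 ± 0.34 SE, adjusted p = 3.7e-09). Mrc1, the mannose receptor of resident macrophages, was between 39.1 and 94.9 CPM (median 49.4) in the adipocyte libraries and at 395, 449 and 811 CPM in the SVC libraries. It was 9.46-fold higher in SVC (log2 -3.24 ± 0.31 SE, adjusted p = 4.78e-08). Adipocyte libraries held 14.2% of the SVC macrophage sum (663 to 1253 CPM against 4119 to 9606 CPM). All 12 dendritic cell markers were higher in SVC (median log2 -3.72, 8.05% of the SVC sum), such as Flt3 (90.5-fold) and Ccr7 (99.0-fold), the receptor that leads cells to lymph nodes. All 14 T cell markers were higher (median log2 -6.57, 2.73% of the sum). Cd3g, a chain of the T cell receptor complex, showed a ratio of 845 with a 95% counting interval of 151 to 33442 from 1 count in adipocytes. All 10 NK cell markers were higher (0.623% of the sum; median log2 -7.53, or -7.25 with Ncr1, at 0 counts in adipocytes, taken at its bound). Ncr1 was at least 55.5-fold higher, at 0.722, 1.41 and 2.41 CPM in SVC.

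B cell and other blood lineage lists went the same way. All 12 B and plasma cell markers tested were higher in SVC (median log2 -6.04). Jchain, which joins polymeric antibodies, was between 1.05 and 2.33 CPM (median 1.61) in the adipocyte libraries and at 119, 293 and 301 CPM in the SVC libraries. It was 146-fold higher in SVC (log2 -7.19 ± 0.43 SE, adjusted p = 2.66e-10). Ighm, the heavy chain of IgM, was the exception in size: it was between 366 and 810.2 CPM (median 653) in the adipocyte libraries and at 1208, 2345 and 2125 CPM in the SVC libraries. It was 3.13-fold higher in SVC, and the light chain gene Igkc was 99.5-fold higher. All 8 mast cell markers were higher (median log2 -7.67, or -7.54 with Ms4a2, at 0 counts in adipocytes, at its bound). Cpa3, a mast cell carboxypeptidase, was between 0.105 and 0.207 CPM (median 0.153) in the adipocyte libraries and at 31.5, 49.0 and 53.2 CPM in the SVC libraries. It was 289-fold higher in SVC (log2 -8.18 ± 0.44 SE, adjusted p = 6.43e-11). All 8 granulocyte markers were higher (median log2 -5.02), and Cxcr2 was at 0 counts in adipocytes and at 0.825, 0.297 and 2.62 CPM in SVC, at least 45.0-fold higher. All 5 erythroid genes were higher (median log2 -5.19, 2.71% of the sum), among them Alas2, the erythroid enzyme of haem synthesis (45.1-fold); the alpha-globin genes have near-identical copies.

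Of 13 mesothelial markers all were higher in SVC (median log2 -2.997, 13.1% of the sum). Wt1, a transcription factor of mesothelium and of visceral fat progenitors, was between 0.551 and 3.32 CPM (median 1.20) in the adipocyte libraries and at 56.4, 62.5 and 49.5 CPM in the SVC libraries. It was 38.7-fold higher in SVC (log2 -5.28 ± 0.39 SE, adjusted p = 2.66e-09), at similar levels in the SVC libraries. Krt8, a keratin of simple epithelia, was between 0.53 and 5.29 CPM (median 1.23) in the adipocyte libraries and at 122, 28.0 and 28.5 CPM in the SVC libraries, highest in SVC replicate 1. Of 7 mammary and skin epithelial markers 3 were tested: 2 were higher in SVC, and 1 lay the other way (log2 1.07) and passed no test. The 2 were Epcam and Cdh1, at 45.0, 8.99 and 5.66 CPM and 34.5, 6.46 and 6.37 CPM in SVC, with replicate 1 highest in both. All 7 epididymal and sperm genes tested were called higher in SVC, and without replicate 1 this held for 3. limma-voom called 2 of them. Rnase10, a ribonuclease of the epididymis, was between 0.211 and 0.496 CPM (median 0.393) in the adipocyte libraries and at 466, 0.371 and 0.38 CPM in the SVC libraries, high in SVC replicate 1 alone. Without that library its adjusted p was 0.997. Crisp1, a sperm-coating protein, was at 139, 32.8 and 66.8 CPM in SVC. Of 6 Schwann cell genes tested, 2 were higher in SVC.

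Some gene families had members that differed in opposite directions. Of 26 families, 12 had at least 1 member called higher in each fraction. With 32.8% of all genes called higher in adipocytes and 44.2% in SVC, this count is not read as a property of families. The members are compared by their differences only, since counts are not per length. In the resistin family, Retn was 287-fold higher in adipocytes. Retnla, a product of alternatively activated macrophages, was between 134 and 196 CPM (median 171) in the adipocyte libraries and at 667, 736 and 1415 CPM in the SVC libraries. It was 5.57-fold higher in SVC (log2 -2.48 ± 0.29 SE, adjusted p = 6.63e-07), and Retnlg was 39.7-fold higher in SVC. Of the Akt kinases, Akt2, the isoform of insulin action, was between 633 and 1047 CPM (median 831) in the adipocyte libraries and at 151, 160.2 and 201 CPM in the SVC libraries. It was 4.84-fold higher in adipocytes (log2 2.28 ± 0.20 SE, adjusted p = 1.61e-08). Akt1 was 1.74-fold higher in SVC. The insulin receptor Insr was between 147 and 176 CPM (median 163) in the adipocyte libraries and at 49.3, 50.6 and 39.5 CPM in the SVC libraries. It was 3.52-fold higher in adipocytes (log2 1.82 ± 0.16 SE, adjusted p = 2.47e-08). The related Igf1r was between 8.97 and 10.3 CPM (median 9.82) in the adipocyte libraries and at 75.9, 48.6 and 34.0 CPM in the SVC libraries. It was 5.42-fold higher in SVC (log2 -2.44 ± 0.21 SE, adjusted p = 1.57e-08).

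Families of energy metabolism also had members called in both directions. Hk2 was 2.87-fold higher in adipocytes, and Hk1 4.28-fold higher in SVC. Of the glucose transporters, Slc2a4 was 92.6-fold higher in adipocytes and Slc2a6 27.4-fold higher in SVC, while the basal transporter Slc2a1 passed no test. Of the long-chain acyl-CoA synthetases, Acsl1 was 45.0-fold higher in adipocytes, and Acsl3 (2.11-fold), Acsl4 (2.64-fold) and Acsl5 (1.34-fold, with overlap between groups; lost without SVC replicate 3) were higher in SVC. The aquaglyceroporin Aqp7, the exit of glycerol, was 5.10-fold higher in adipocytes, whereas Aqp1, the water channel of endothelium, was 2.00-fold higher in SVC (adjusted p = 0.0345), a call lost without SVC replicate 1 or 2 or adipocyte replicate 3, 5 or 6. The phosphodiesterase Pde3b, by which insulin lowers cyclic AMP, was 9.59-fold higher in adipocytes and Pde3a 21.1-fold higher in SVC. Enolase Eno1 was higher in adipocytes and the neuronal form Eno2 in SVC (log2 1.59 and -5.01). Carbonic anhydrase Car3 was higher in adipocytes and Car2 in SVC (log2 6.86 and -2.49). Of the monocarboxylate transporters, the lactate exporter Slc16a3 was 26.0-fold higher in SVC. Slc16a7 (3.37-fold) and Slc16a1 (1.53-fold, with overlap between groups) were higher in adipocytes.

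In other families all tested members were higher in adipocytes. These were all 5 perilipins, all 3 PPARs, both acetyl-CoA carboxylases, both glycogen synthases, both lactate dehydrogenases, both diacylglycerol acyltransferases and all 5 caveolins and cavins tested. Cav1, the scaffold of the membrane pits called caveolae, was between 3348 and 4127 CPM (median 3542) in the adipocyte libraries and at 273, 348 and 333 CPM in the SVC libraries. It was 11.4-fold higher in adipocytes (log2 3.51 ± 0.29 SE, adjusted p = 9.7e-09). Gys1, the glycogen synthase of muscle and most tissues, was 43.1-fold higher. Further members turned with the scaling: Cebpg and Pck2 (whose groups overlapped), at log2 0.43 and 0.49, changed sign under library totals alone (log2 -0.12 and -0.07, adjusted p = 0.426 and 0.733).

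**Figure D4:**
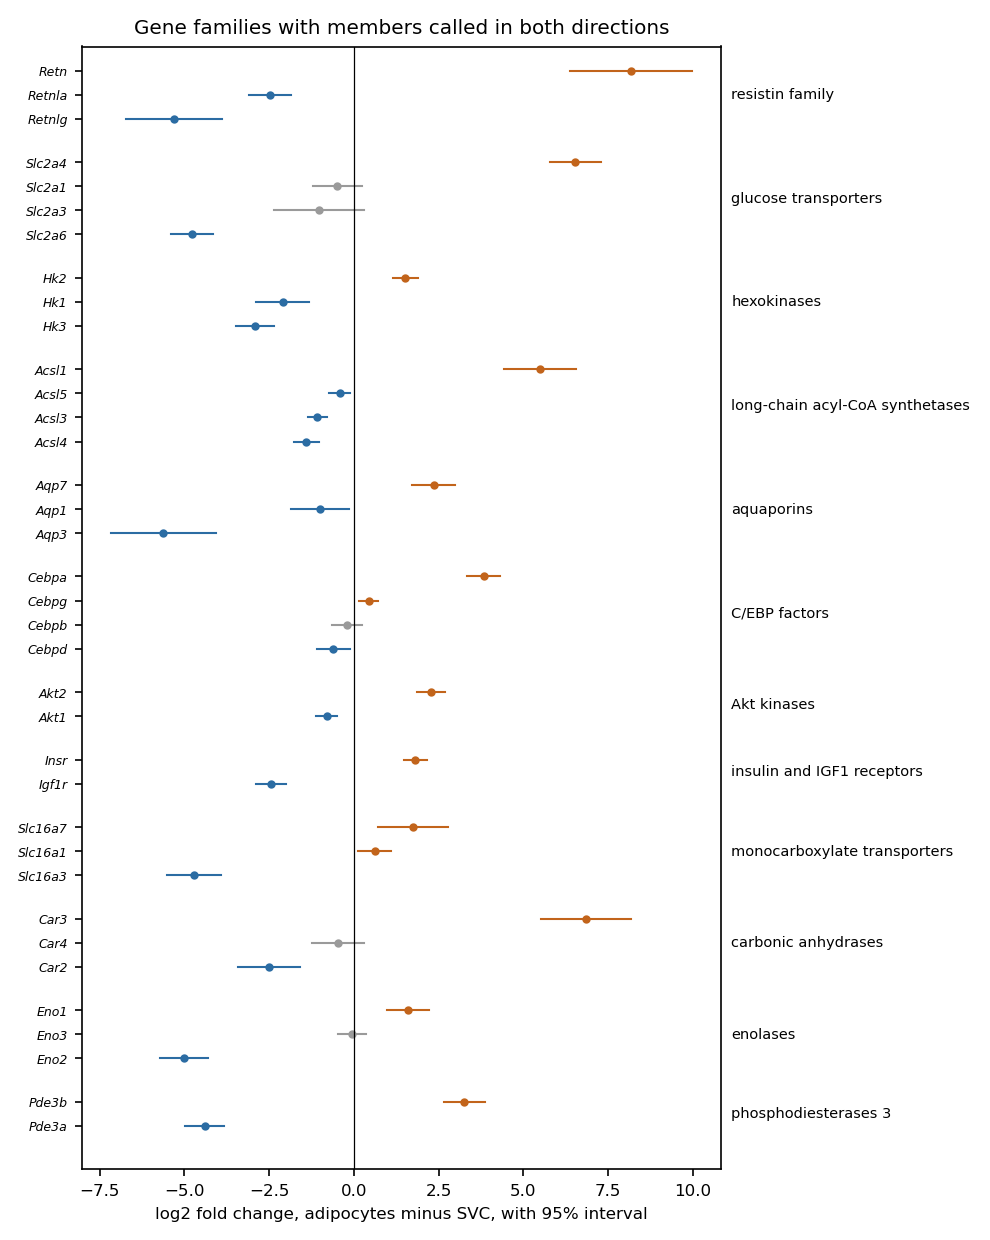
Log2 fold change (adipocytes minus SVC) with its 95% interval for the tested members of the 12 families with members called in both directions; orange, called higher in adipocytes; blue, called higher in SVC; grey, not called. Retn, Slc2a4 and Car3 lie at the right and a relative of each lies left of 0.

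Ligands and receptors were read in 36 pairs of known partners, among them 9 with the ligand higher in adipocytes and the receptor in SVC, 6 the other way, 8 with both higher in SVC and 2 with both higher in adipocytes. The pairs include the enzyme Ptgs2, set as the ligand of Ptger3, and the lipase Lpl, set as the receptor of its inhibitor Angptl4. Over the pairs, 12 of 34 genes set as ligands were higher in adipocytes and 17 in SVC, and of 29 set as receptors 9 and 16. These counts stand against 32.8% and 44.2% of all genes, and nothing particular to the pairs is read from them. Among adipocyte ligands with SVC receptors, leptin stood at log2 6.46 and its receptor Lepr at log2 -3.44. Lepr was between 0.0527 and 0.852 CPM (median 0.24) in the adipocyte libraries and at 4.78, 4.72 and 1.94 CPM in the SVC libraries. Vegfb, a vascular growth factor, was between 222 and 289 CPM (median 258) in the adipocyte libraries and at 6.88, 9.84 and 12.3 CPM in the SVC libraries. It was 26.3-fold higher in adipocytes (log2 4.72 ± 0.20 SE, adjusted p = 6.41e-12). Its receptor Flt1 was 2.89-fold higher in SVC (adjusted p = 0.00691, lost without SVC replicate 2). Adiponectin had 1 partner on either side: Adipor2 was 12.3-fold higher in adipocytes and the binding protein Cdh13, T-cadherin, 3.14-fold higher in SVC (adjusted p = 8.47e-11 and 0.00119). Agt, angiotensinogen, was higher in adipocytes and its receptor Agtr1a in SVC (log2 2.91 and -2.56).

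The opposite arrangement included prostaglandin synthesis and Gdf3, a growth factor of the TGF-beta superfamily. Ptgs2, the inducible cyclooxygenase, was between 1.93 and 8.42 CPM (median 3.63) in the adipocyte libraries and at 412, 358 and 518 CPM in the SVC libraries. It was 102-fold higher in SVC (log2 -6.68 ± 0.43 SE, adjusted p = 5.67e-10). Ptger3, the prostaglandin E receptor that inhibits lipolysis, was between 43.0 and 62.1 CPM (median 56.4) in the adipocyte libraries and at 2.06, 3.01 and 6.08 CPM in the SVC libraries. It was 14.8-fold higher in adipocytes (log2 3.89 ± 0.34 SE, adjusted p = 1.65e-08). Acvr1c, the activin receptor ALK7, was between 75.7 and 114 CPM (median 97.5) in the adipocyte libraries and at 0.275, 0.743 and 1.73 CPM in the SVC libraries. It was 107-fold higher in adipocytes (log2 6.74 ± 0.67 SE, adjusted p = 1.18e-07). Its ligand Gdf3, known from fat macrophages, was 13.2-fold higher in SVC, whereas Inhbb, the activin subunit paired with it, passed no test (log2 0.29). Both Il33, a cytokine of progenitors, and its receptor Il1rl1 of regulatory T cells and innate lymphocytes were higher in SVC (log2 -4.01 and -6.61). Several of these calls rested on 1 library or on the scaling: that of Pdgfa and that of Fgf1, the 1 of them whose groups overlapped, were lost without SVC replicate 3, that of Pdgfc without replicate 1, those of Kdr, Flt1 and Apln without replicate 2, that of Ednra without any SVC replicate, that of Bmpr1a without SVC replicate 1 or 3, and that of Angpt1 under library totals alone. The 2 pairs within adipocytes were Adipoq with Adipor2 and Angptl4, the inhibitor of lipoprotein lipase, with Lpl.

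**Figure D5:**
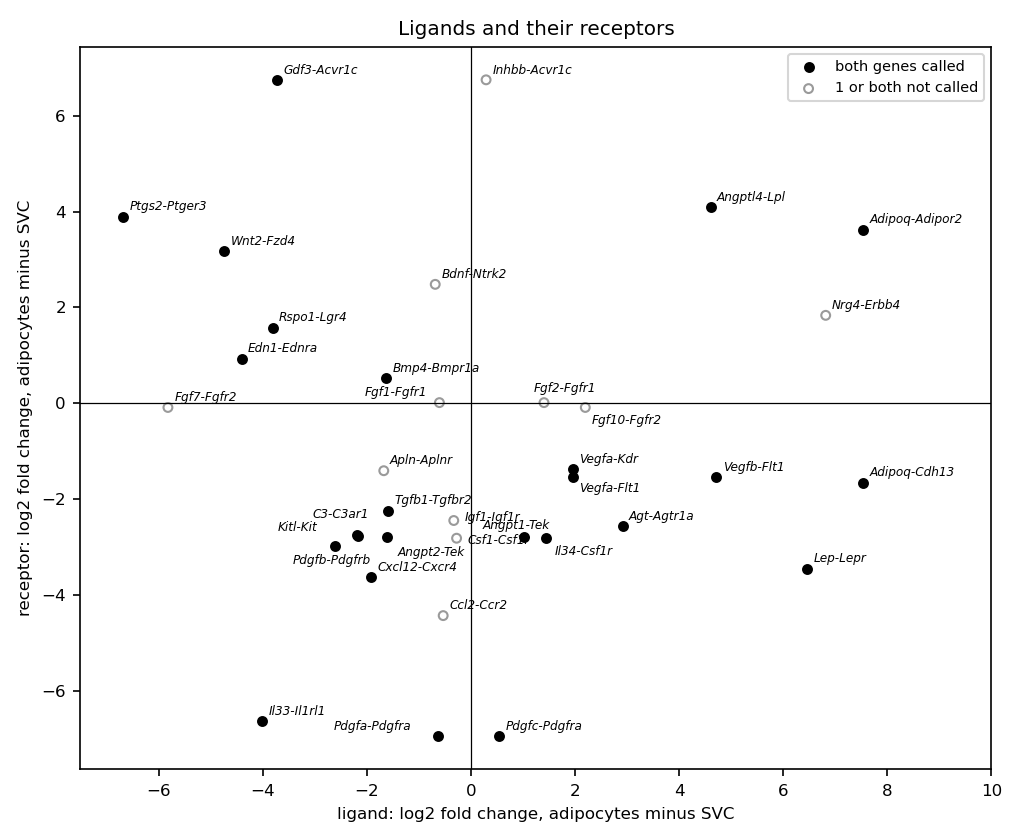
Log2 fold change (adipocytes minus SVC) of the ligand, horizontal, and of its receptor, vertical, for 36 pairs. Ptgs2-Ptger3 and Angptl4-Lpl are included although Ptgs2 and Lpl are enzymes. Filled points have both genes called. The 9 pairs at lower right have the ligand higher in adipocytes and the receptor higher in SVC, and the 6 at upper left the reverse.

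The Wnt pathway, which the deleted gene of the series serves, was divided between the fractions. Of 23 Wnt ligands and receptors tested, 18 were higher in SVC and 3 in adipocytes (median log2 -1.54), and of 8 secreted inhibitors 7 were higher in SVC and 1 in adipocytes (median log2 -4.80). Wnt10b, which restrains adipogenesis, was at 0 counts in all 6 adipocyte libraries and at 13.6, 12.1 and 8.44 CPM in SVC, at least 442-fold higher. Fzd4, a Wnt receptor, was between 472 and 619 CPM (median 539) in the adipocyte libraries and at 52.0, 80.9 and 49.4 CPM in the SVC libraries. It was 8.98-fold higher in adipocytes (log2 3.17 ± 0.27 SE, adjusted p = 1.14e-08). Sfrp5, a secreted Wnt antagonist of fat, was between 35.9 and 116 CPM (median 73.7) in the adipocyte libraries and at 0.413, 0.557 and 2.24 CPM in the SVC libraries. It was 68.6-fold higher in adipocytes (log2 6.10 ± 0.93 SE, adjusted p = 1.8e-05). Its relative Sfrp1 was between 1.83 and 2.96 CPM (median 2.13) in the adipocyte libraries and at 146, 185 and 176 CPM in the SVC libraries. It was 73.6-fold higher in SVC (log2 -6.20 ± 0.27 SE, adjusted p = 8.74e-12).

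Of 27 genes of the beta-catenin machinery and its common targets, 8 were higher in adipocytes, 8 in SVC and 11 passed no test (median log2 -0.15). Library totals alone gave 3 and 18, so most of the calls in favour of adipocytes depended on the scaling. Which of the genes below kept such a call is not given here. In the complex that destroys beta-catenin, Apc, Gsk3b and Csnk1a1 passed no test, Gsk3a was higher in adipocytes and Axin1 in SVC. The nuclear partners were split: Tcf7 was between 0.0527 and 0.331 CPM (median 0.183) in the adipocyte libraries and at 19.3, 21.0 and 17.6 CPM in the SVC libraries. It was 97.2-fold higher in SVC (log2 -6.60 ± 0.42 SE, adjusted p = 3.71e-10). Lef1 was 198-fold higher in SVC. Tcf7l2 was between 22.2 and 28.3 CPM (median 25.2) in the adipocyte libraries and at 13.9, 16.9 and 14.0 CPM in the SVC libraries. It was 1.69-fold higher in adipocytes (log2 0.76 ± 0.20 SE, adjusted p = 0.00295). Tcf7 and Lef1 are also genes of T cells, whose markers were higher in SVC as given above; their part was not tested. Jup, plakoglobin, the close relative of beta-catenin in junctions, was between 288 and 427 CPM (median 351) in the adipocyte libraries and at 147, 178 and 159.6 CPM in the SVC libraries. It was 2.21-fold higher in adipocytes (log2 1.14 ± 0.24 SE, adjusted p = 0.000337). Lgr4, a receptor of R-spondins, was 2.99-fold higher in adipocytes and Rspo1 14.0-fold higher in SVC. Axin2, the feedback target, was between 13.3 and 28.8 CPM (median 19.3) in the adipocyte libraries and at 14.5, 12.7 and 6.50 CPM in the SVC libraries. It passed the test although the groups overlapped (log2 0.78 ± 0.31 SE, adjusted p = 0.0318). Ccnd1, cyclin D1, was 8.79-fold higher in SVC, and Rnf43, a ligase that removes Wnt receptors, was at 0 counts in adipocytes and at least 116-fold higher in SVC.

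Genes that respond to tissue handling did not all favour 1 fraction. Of 19 immediate-early genes, 8 were higher in SVC, 2 in adipocytes and 9 passed no test (median log2 -0.51). Library totals alone gave 14 higher in SVC. Fos was between 328 and 399 CPM (median 379) in the adipocyte libraries and at 471, 525 and 408 CPM in the SVC libraries and passed no test. Nr4a1, an orphan nuclear receptor, was between 107 and 296 CPM (median 166) in the adipocyte libraries and at 1231, 1291 and 1138 CPM in the SVC libraries. It was 6.77-fold higher in SVC (log2 -2.76 ± 0.33 SE, adjusted p = 1.04e-06). Klf4, a zinc-finger factor, was 8.66-fold higher. Btg2 and Egr2 were higher in adipocytes (2.03-fold and 1.98-fold), Btg2 not under library totals alone (adjusted p = 0.113). Of 10 heat shock genes, Dnajb1 (with overlap between groups) and Hspe1 were higher in adipocytes and 8 passed no test; the median, log2 -0.17, changed sign among the settings tried, alone among the 39 list medians. Of 22 cytokines and chemokines, 18 were higher in SVC and 1 in adipocytes (median log2 -2.79). Il1b, the inflammasome cytokine, was between 9.20 and 39.2 CPM (median 15.0) in the adipocyte libraries and at 467, 242 and 1464 CPM in the SVC libraries. It was 38.4-fold higher in SVC (log2 -5.26 ± 0.57 SE, adjusted p = 3.37e-07). Ccl11, the eosinophil attractant, was between 2.92 and 8.37 CPM (median 5.06) in the adipocyte libraries and at 225, 301 and 304 CPM in the SVC libraries. It was 49.5-fold higher in SVC (log2 -5.63 ± 0.33 SE, adjusted p = 1.82e-10). Cxcl10, an interferon-induced chemokine, was the exception, at between 361 and 990.3 CPM (median 592) in the adipocyte libraries and at 56.8, 69.6 and 118 CPM in the SVC libraries. It was 7.40-fold higher in adipocytes (log2 2.89 ± 0.35 SE, adjusted p = 8.6e-07). Of 20 cell cycle genes, 18 were higher in SVC (median log2 -2.95). Top2a, the topoisomerase of dividing cells, was between 0.415 and 1.38 CPM (median 1.03) in the adipocyte libraries and at 19.8, 17.2 and 28.2 CPM in the SVC libraries. It was 22.1-fold higher in SVC (log2 -4.47 ± 0.34 SE, adjusted p = 2.99e-09).

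Upstream sequence is shown for 4 genes whose lists differed between the fractions, with the short motif that each was read for. RefSeq windows of 250 bases before the start (build GRCm38.p6, not the build of the counts) were searched on both strands for 20 short motifs, of which 4 are described, chosen after values and shares had been seen. The letters CCGGAAG, of the ETS kind, were in 6.91% of all 32851 windows and in 11.7% of the 15708 windows of tested genes. They were in 12.3% of windows of genes more than 2-fold higher in adipocytes, close to the share of tested genes, and in 4.95% of those more than 2-fold higher in SVC. Counted by gene, they were in 2 of 20 genes of the respiratory chain and in 1693 of 12365 tested genes. AGGAAGT, of the PU.1 kind, which shares letters with the first, was in 7.69%, 7.59%, 6.17% and 10.2% of the windows of these sets, in the same order. By gene it was in 5 of the 15 macrophage markers that have a window and in 1106 of 12365 tested genes. The longer form GAGGAAGT was in 1 of those 15 markers. TATAAA was in 12.4%, 7.22%, 6.86% and 9.39% of the windows of the same sets. By gene it was in 6 of 15 cytokine genes, in 0 of 20 genes of the respiratory chain and in 1078 of 12365 tested genes. TGACTCA, of the AP-1 kind, was in 4.46%, 3.62%, 3.25% and 5.53%. For the other 16 motifs the adipocyte and SVC shares differed by -5.33 to 4.63 points; they were CCAAT of the NF-Y kind, CACCC of the KLF kind, CACGTG of the E-box kind and its longer form TCACGTGA of the USF kind, TTGCGCAA of the C/EBP kind with its looser forms TTGCNNAA and, one letter longer, TTGCNNCAA, the longer PU.1 form GAGGAAGT, the nuclear receptor letters GGTCANAGG and, for single receptors, CAAGGTCA, and the octamer ATTTGCAT, with longer forms for PPAR (a pair), NF1, SREBP and NF-kB. These are matches of letters, not sites. For each of 4 lists, the member of largest difference in its list's direction with a match in a single window is shown, 5′ to 3′ with the match in capitals (ACTTCCT is the opposite strand of AGGAAGT): Ndufs3 of complex I (chr2:90904722-90904971, minus strand; 6.64-fold higher in adipocytes), Cebpa (chr7:35119043-35119292, plus strand; 14.2-fold higher in adipocytes), Mrc1 (chr2:14229164-14229413, plus strand; 9.46-fold higher in SVC) and Il1b (chr2:129371140-129371389, minus strand; 38.4-fold higher in SVC).
Ndufs3: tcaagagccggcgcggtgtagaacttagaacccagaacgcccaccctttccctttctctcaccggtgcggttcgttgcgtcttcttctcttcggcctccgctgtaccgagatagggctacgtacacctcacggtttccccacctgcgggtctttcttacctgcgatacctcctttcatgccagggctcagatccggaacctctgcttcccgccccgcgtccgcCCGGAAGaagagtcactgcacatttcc
Cebpa: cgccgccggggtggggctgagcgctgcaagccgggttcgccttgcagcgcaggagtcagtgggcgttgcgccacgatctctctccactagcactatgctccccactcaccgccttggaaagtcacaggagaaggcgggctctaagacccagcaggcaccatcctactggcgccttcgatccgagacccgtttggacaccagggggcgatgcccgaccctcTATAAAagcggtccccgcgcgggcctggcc
Mrc1: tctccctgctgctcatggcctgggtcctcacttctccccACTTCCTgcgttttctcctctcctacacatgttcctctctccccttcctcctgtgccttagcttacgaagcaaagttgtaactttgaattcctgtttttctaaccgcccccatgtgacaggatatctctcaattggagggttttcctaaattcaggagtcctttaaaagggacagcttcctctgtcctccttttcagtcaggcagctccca
Il1b: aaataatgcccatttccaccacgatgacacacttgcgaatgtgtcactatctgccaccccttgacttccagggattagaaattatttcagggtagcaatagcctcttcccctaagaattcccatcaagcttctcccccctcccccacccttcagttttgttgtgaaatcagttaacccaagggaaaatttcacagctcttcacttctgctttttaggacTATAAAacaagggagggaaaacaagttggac
The TATAAA of Cebpa and of Il1b begins 30 and 31 bases before the start, the CCGGAAG of Ndufs3 27 bases before it, and the match in Mrc1 211 bases before it.

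Whether the difference between fractions itself depended on the genotype label was tested as an interaction over the 18 male libraries (5 adipocyte and 4 SVC libraries labelled Ctnnb1AdKO). No gene passed in edgeR (0 of 17251, 0.0%), with 1149 genes (6.66%) at an unadjusted p below 0.05; limma-voom also called 0 and DESeq2 called 17. The genes with the smallest p were Fgf1, Vat1l, Rxrg, Slc22a4 and Rnf144b, with adjusted p from 0.287 for Fgf1 to 0.43 for Rnf144b. Fgf1, a fibroblast growth factor, was at log2 -0.60 between control fractions and at log2 1.41 between the fractions labelled knockout. Rxrg was at log2 7.56 and 5.20. Neither difference passed, which does not show that the fractions differ alike in both genotypes.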

How the data were processed

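Adipocytes and SVC of male controls were compared in the deposited table of raw gene counts; no per-sample column was left unmapped. Per the submitters' processing notes, reads were checked with FastQC 0.12.1, aligned with STAR 2.7.11a to mm39, and DESeq2 was used. The sources used here name no counting tool. The counts (20686337 to 22209603 per library) were fitted here with edgeR 4.0.16 in R 4.3.3: TMM scaling, filterByExpr (minimum count 10), and the quasi-likelihood test over 18 male libraries in 4 groups, so that 17251 genes were tested and adjusted together by Benjamini-Hochberg at 0.05. glmTreat tested against 2-fold. Fits were repeated with DESeq2 1.42.0 and limma-voom (limma 3.58.1), under further scalings and filters, with other sets of libraries, a replicate block and leaving out each library. No pair of replicates agreed within sampling noise (lowest chi-square per degree of freedom 13.1). On data simulated for this comparison (16309 genes, 50 changed per size), 80%, 50%, 46% and 84% of genes were recovered at log2 -2, -1, 1 and 2, and 3.70% of calls were false.

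Lists (39), families (26) and pairs (36) were chosen with earlier results of these data known. Named were Ctnnb1, the 12 largest differences each way with at least 10 CPM and no overlap, the 10 most abundant genes of each fraction, up to 3 leading members of each list and 1 opposed, all family and pair members, and the 5 genes of smallest p for the genotype difference; predicted genes were left out, and some genes that this names are not reported here. Acly, Axin1, Axin2, Ccnd1, Cdh5, Col4a1, Col5a3, Col15a1, Cspg4, Dpp4, Egr2, Fos, Icam1, Ighm, Igkc, Lef1, Mrc1, Ndufs3, Npr1, Npr3, Pnpla2, Sparc, Tcf7, Tcf7l2, Ucp1, mt-Cytb and other genes named without a value were chosen after their values were seen. Intervals of count ratios and bounds cover counting error only.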

Additional observations from a re-analysis of the deposited data

Results flagged for a closer look

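Of 185 values in the 6 adipocyte libraries that were screened for 1 library far from the other 5, 13 stood apart; chance alone marks about 1 in 20 such groups. Of the genes of brown and beige fat, only Ucp1 and Cidea were flagged, both in adipocyte replicate 2. Ucp1 was at 40.1 CPM there against at most 0.157 CPM in the others, and Cidea was at 28.8 CPM against 2.97 to 10.1 CPM. In the same library Gsn (18583 CPM against at least 21050.0), Akt1 (103 CPM against at least 122) and the lipase Pnpla2 (4311 CPM against at least 5153) were lowest. Fbn1, Pdgfra and Rspo1, each higher in SVC, stood apart in adipocyte replicate 1. Fbn1 was at 11.3 CPM there (others up to 6.61), Pdgfra at 3.79 CPM (up to 2.14) and Rspo1 at 5.24 CPM (up to 2.35). That library was also lowest for Myl1 (30.0 CPM against at least 33.3) and Pde3b (297 CPM against at least 393). Adipocyte replicate 3 was lowest for Bckdhb (208 CPM against at least 255) and was the only adipocyte library with a Cd3g count (0.0551 CPM, 1 count). Lep was highest in adipocyte replicate 6, at 1314 CPM against 832 to 981 CPM.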

How the results depend on the processing

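The counts of genes kept within 1.5 times of their values under every setting tried, except that library totals alone gave 1936 genes more than 2-fold higher in adipocytes, against 3080. Leaving out each library gave 5297 to 5588 genes higher in adipocytes and 6923 to 7896 in SVC, and 2825 to 3084 and 4702 to 5641 beyond 2-fold. For the difference between genotype labels DESeq2 called 17 genes, all 30 libraries gave 4, and leaving out each library 0 to 1. The shares of counts (adipocytes minus SVC, percentage points) ranged, over leaving out each library, from 0.624 to 0.703 for the mitochondrial genome, -1.40 to -0.646 for ribosomal protein genes, 8.26 to 9.13 and 12.4 to 14.2 for the 10 and 100 most abundant genes and 9.83 to 10.0 for adipocyte markers; the exact permutation p was then at most 0.0714, and the smaller designs cannot all reach 0.05.

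By column-name number, 2 of the 3 same-numbered pairs of libraries deviated together (r = 0.307 and 0.278, the highest of 18) and the other did not (-0.0226); by title number r was -0.104 to 0.0604. Under a rule that every pair exceed 0.1 the numbers were not taken as pairs, and the main tests treat the libraries as independent. With 3 pairs these values cannot settle whether same-numbered libraries came from the same animals. With a replicate block by column-name number the shares differed by 0.714, -1.15, 8.63, 13.1 and 10.0 points, with an exact p of 0.25, the smallest that 3 pairs allow. That block gave 4955 and 6727 genes (2725 and 4904 beyond 2-fold), and a block by title number 5161 and 6867 (2860 and 4880).

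Of 272 named genes 249 were called, 224 of them in all of the 20 alternatives that tested them, and 13 lost the call under the replicate block by column-name number. Signs changed under library totals alone for Adipor1 (log2 -0.30, adjusted p = 0.0328), Bmpr1a (log2 -0.0304, 0.906), Cebpg (log2 -0.12, 0.426), Fgfr1 (log2 -0.54, 0.00131) and Pck2 (log2 -0.0743, 0.733), and without SVC replicate 1 for Rnase10 (log2 0.00417, 0.997; log2 -9.23 without replicate 2). The cause was not tested. The self-test changed 50 genes per size among 16309, whereas 77.1% of the genes tested here were called. Its cutoff on the unadjusted p was therefore stricter, and its recovery of 46% to 50% at 2-fold does not carry over. How many differences of that size were missed with 6 and 3 libraries was not measured.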
